A study of Mus musculus with 10 samples.

Results

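The genes described here encode the proteins of the cytosolic ribosome, and they were followed in mouse retinas kept under normal light or exposed to damaging light. They were chosen by name alone, as the protein-coding rows of the deposited gene table whose symbols begin with Rpl or Rps and a number, without the Rps6k kinases. Of the 54532 genes in the table, 90 met this rule, 56 of them named Rpl for the large (60S) subunit and 34 named Rps for the small (40S) subunit. 73 carry the plain name of a ribosomal protein and are called core genes below, and 17 are paralogs, retrotransposed copies annotated as protein-coding, or a binding protein. A ribosome holds a single copy of most of its proteins, and the corresponding mRNAs are among the most abundant of any cell. Many of them begin with a run of pyrimidines at the cap site, the 5′ TOP motif, through which the mTOR kinase and the RNA-binding protein LARP1 control their translation. Their reverse-transcribed mRNAs have been inserted all over mammalian genomes, so that most of these genes have processed pseudogenes of nearly the same sequence.

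All retinas came from BALB/c mice, an albino strain sensitive to light, at an age of 2 months. Every mouse was dark-adapted for 12 h and then kept for 1 day either at 15000 lux (light damage, LD, n = 5) or at 200 lux (normal light, NL, n = 5), and RNA of the retina was sequenced. The study calls the columns biological replicates, but the labels do not say how many animals gave each library, so p-values measure the spread between these libraries. Retinas are named by group and by the number in their label, and single values are given in the order NL-1, NL-4, NL-5, NL-7, NL-8 and LD-1, LD-4, LD-6, LD-7, LD-8.

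Read numbers were recovered from the deposited values, which are whole multiples of 1 step per retina, and came to 18965090 to 26832535 per retina. The tissue was recognisable as retina by its rod markers, of which all 8 fell in LD, their summed level going from 8068 to 9881 FPKM (fragments per kilobase, scaled to library size) in NL to 1192 to 2409 in LD. Of 6 microglia markers 4 rose, from a summed 16.3 to 27.0 FPKM to 30.1 to 74.9, 6 of 6 cone markers fell, and of 4 Müller glia markers 1 rose and 1 fell, their summed level being 805 to 1033 FPKM in NL and 282 to 395 in LD. Lyz2, the only one of 3 tested markers of infiltrating myeloid cells to pass, rose, 1 of 3 tested lens markers rose at a summed level of at most 0.870 FPKM, and none of the bipolar, amacrine, ganglion cell, endothelial, red blood cell or pigment epithelium markers passed the test. The part of these cell types in the results below was not tested. In whole retina, fewer cells of a type and less RNA per cell cannot be told apart. There were 3 pairs of libraries that stood closer together than the others within groups, LD-4 with LD-6, NL-5 with NL-7 and LD-1 with LD-7, with a chi-square per gene of 2.65 to 3.65 against at least 12.2 for the other pairs. They differed beyond sampling noise and were kept as separate samples, and counts with each pair averaged are given where they differ.

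Ribosomal protein genes were moderately higher in LD as a group, and not one of them reached the fold change of 2 that the study required. At adjusted p under 0.01 and more than 2-fold, the study's thresholds, 0 of the 84 genes with enough signal to test were called, against 6.51% of the 24508 genes tested. The log2 fold changes ran from -0.41 to 0.85, so the count is 0 at any p, and it was also 0 with limma-voom. At adjusted p under 0.05 with no minimum fold, 32 of the 84 (38.1%) were higher in LD, where 14.5% of all genes tested were, and 1, Rps23, was lower, where 13.4% were (limma on log2 FPKM, Benjamini-Hochberg over all genes tested). Among the 5372 protein-coding genes averaging 10 FPKM or more, 18.7% were higher, 23.5% lower and 5.85% past the study's thresholds. The median log2 fold change of the 84 was 0.24, with 72 values above 0 and 12 below, and that of all genes tested was -0.01. The counts depend on a scaling factor per retina contained in the deposited FPKM. Without it 56 of the 84 genes were higher and 1 lower, but 74.1% of the calls over all genes tested were then increases, against 52.0% with it, and the median of the 84 stood 0.26 above that of all genes, against 0.25. All 5 LD retinas lay above all 5 NL retinas for 27 of the 84 genes (background 11.8%) and below them for 1 (background 10.6%).

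The size of the difference depended on the retina. Reads on the 90 genes made up 0.940%, 0.926%, 0.933%, 0.959% and 0.934% of the reads of NL-1, NL-4, NL-5, NL-7 and NL-8, and 1.07%, 1.32%, 1.34%, 1.02% and 1.16% of those of LD-1, LD-4, LD-6, LD-7 and LD-8. Every LD retina stood above every NL retina, and the LD retinas were spread far more widely. On average the share was 0.938% ± 0.0128 in NL and 1.18% ± 0.143 in LD (SD, n = 5 each), a ratio of 1.26. LD-4 and LD-6 were both above the other LD retinas for 49 of the 84 genes, and LD-7 was the lowest LD retina for 50. This order was not counted over all genes tested, so it cannot be called particular to these genes. LD-4 and LD-6 were also the closest pair of libraries. Rod markers took 0.711% and 0.754% of the reads of LD-4 and LD-6, 1.10% to 1.40% of those of the other LD retinas and 4.09% to 4.82% of the NL reads. Taken over the reads of protein-coding genes other than rod markers, the share was 1.02% ± 0.0146 in NL and 1.24% ± 0.147 in LD (SD, n = 5 each), a ratio of 1.21. With the closest pairs averaged, 20 genes were higher instead of 32. Of all 24508 genes tested, 2371 were then higher instead of 3543.

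**Figure D1:**
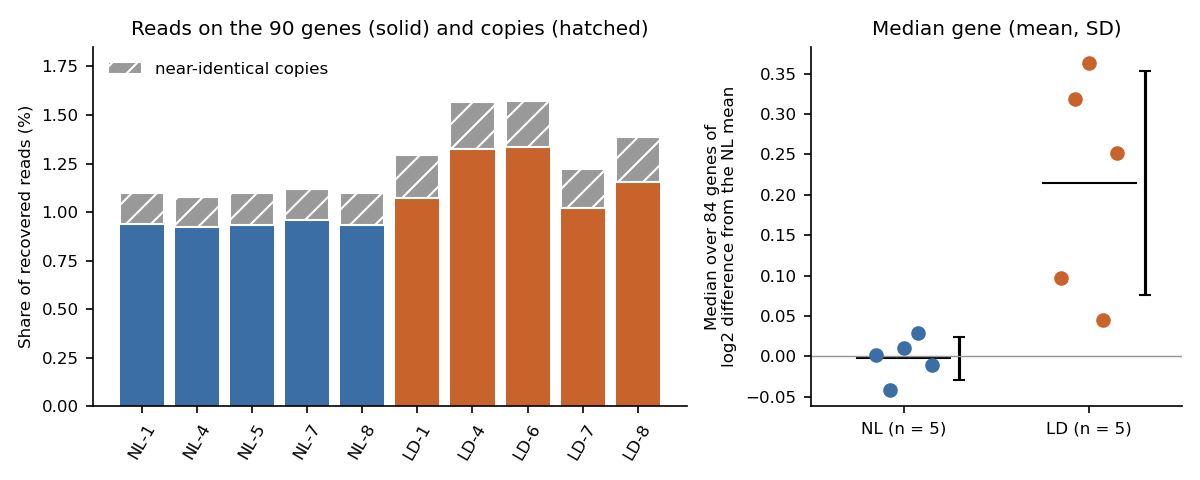
Left, the percentage of recovered reads on the 90 ribosomal protein genes (solid, NL blue, LD orange) and on their near-identical copies outside the 90 (hatched) in each of the 10 retinas, from 0. Right, the median over the 84 tested genes of the log2 difference from the NL mean, 1 point per retina with the group mean (line) and SD (bar). The LD points run from 0.05 in LD-7 to 0.36 in LD-6 and all lie above the NL points, the highest of which is 0.03.

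Among the core genes of the large subunit, 18 of 43 (41.9%) were higher and 0 lower, beside 14.5% and 13.4% of all genes tested. The median log2 fold change of the 43 was 0.25. Rpl39, a short protein that lines the exit tunnel, had 45.6, 40.6, 46.8, 50.4 and 45.8 FPKM in NL and 64.9, 78.2, 79.2, 55.97 and 70.2 in LD. The groups did not overlap, LD-7 being the lowest LD retina and LD-4 and LD-6 the highest, and the log2 fold change was 0.60 ± 0.10 (SE), adjusted p = 0.00106. Rpl12, of the base of the stalk where elongation factors bind, had 25.05, 25.3, 24.4, 25.8 and 23.98 FPKM in NL against 30.8, 45.2, 47.2, 31.4 and 36.9 in LD. Here the NL retinas were nearly equal and LD-4 and LD-6 were again the highest LD retinas, and LD-1 and LD-7 the lowest, at a log2 fold change of 0.60 ± 0.12 (SE), adjusted p = 0.00327. These values cover only the Rpl12 row, and the pseudogene Gm10275, of nearly the same sequence, averaged 22.8 FPKM in NL and 35.7 in LD. Rpl41, the smallest ribosomal protein, went from 151 ± 5.57 to 216 ± 27.8 FPKM (SD, n = 5; log2 fold change 0.51 ± 0.09 (SE), adjusted p = 0.00141). Rpl36, the most abundant of the large-subunit genes, had 313, 282, 316, 319.9 and 304 FPKM in NL and 373, 441, 464, 309 and 393 in LD. LD-7 lay inside the NL range and the other LD retinas above it, and the log2 fold change was 0.35 ± 0.11 (SE), adjusted p = 0.0345. Rpl8, a protein near the peptidyl transferase centre, averaged 198 FPKM in NL and 213 in LD. Its log2 fold change was 0.10 ± 0.06 (SE), adjusted p = 0.215, with overlapping groups. The other large-subunit genes that rose were Rpl6, Rpl7a, Rpl10, Rpl13, Rpl15, Rpl18, Rpl19, Rpl23, Rpl27a, Rpl32, Rpl35, Rpl36a, Rpl37 and Rpl38, from 0.19 for Rpl37 to 0.50 for Rpl36a. The 25 large-subunit genes that did not pass ranged from -0.41 for Rpl21 to 0.65 for Rpl30. The Rpl21 row held 1.22 to 4.53 FPKM, while its processed pseudogene Rpl21-ps15 averaged 42.8 FPKM in NL and 46.8 in LD. With the reads of such copies added, as described below, no core gene of the large subunit stood below -0.10. Rpl5 and Rpl11, which bind 5S RNA and can hold the p53 ligase Mdm2, had log2 fold changes of 0.16 and 0.16 at adjusted p = 0.135 and 0.156.

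Among the core genes of the small subunit, 9 of 30 (30%) were higher and 1 (3.33%) lower, beside 14.5% and 13.4% of all genes tested. The median log2 fold change of the 30 was 0.21. Rps12, a protein of the beak of the small subunit, had 26.6, 27.9, 26.9, 28.3 and 28.6 FPKM in NL and 46.4, 44.4, 40.4, 41.3 and 40.8 in LD. LD-1 was the highest here and all LD retinas were close, with a highest-to-lowest ratio of 1.15 over the LD retinas. The log2 fold change was 0.62 ± 0.05 (SE), adjusted p = 6.74e-06. These values cover only the reads assigned to the Rps12 row. The retrotransposed Rps12-ps3, whose aligned coding bases do not differ from those of Rps12, held 58.1 to 108 FPKM in LD, a ratio of 1.86. Reads of these rows cannot be told apart with certainty, so the close LD values may not describe all Rps12 reads. Over the 32 genes that rose this ratio ran from 1.09 to 1.86 with a median of 1.35, and it stayed under 1.2 for 7 of them. Rps23, which reaches into the decoding centre, was the one gene that fell. It had 169, 184, 183, 193 and 153 FPKM in NL and 126, 144, 138, 121 and 139.9 in LD. The highest LD retina was below the lowest NL retina, and the log2 fold change was -0.40 ± 0.08 (SE), adjusted p = 0.00306. All reads of Rps23 and its 3 copies were on the Rps23 row, and it stayed lower at adjusted p under 0.05 without any 1 of the 10 retinas. The other small-subunit genes that rose were Rps2, Rps4x, Rps9, Rps13, Rps15a, Rps20, Rps24 and Rps26, from 0.15 for Rps15a to 0.62 for Rps2. Of the 20 that did not pass, Rps27a, made as a fusion with ubiquitin, had the lowest value (-0.40, adjusted p = 0.308). None of the 3 most abundant passed: Rps15 had a log2 fold change of 0.04 ± 0.08 (SE), adjusted p = 0.744, Rps3a1 0.15 ± 0.09 (SE), adjusted p = 0.262, and Rps14 -0.07 ± 0.09 (SE), adjusted p = 0.632. The sign for Rps14 turned when the retinas were scaled in 3 other ways. Rps6, the substrate of the S6 kinases downstream of mTOR, had 156 ± 9.04 FPKM in NL and 162 ± 16.1 in LD (SD, n = 5), with a log2 fold change of 0.05 ± 0.08 (SE), adjusted p = 0.686.

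**Figure D2:**
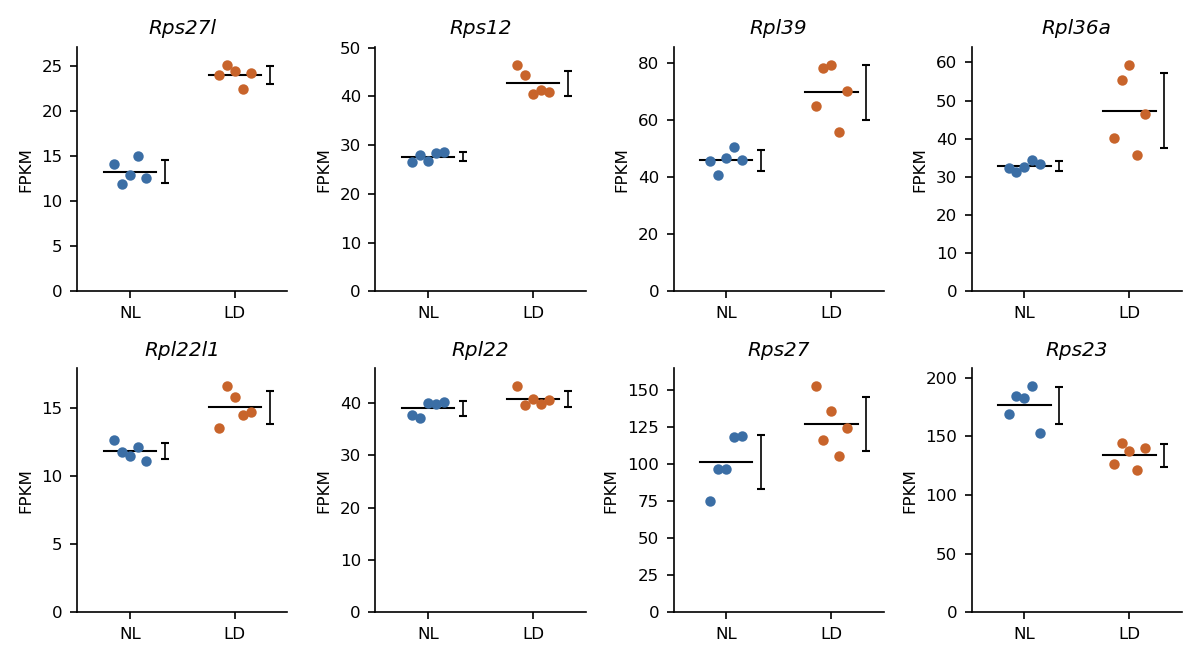
FPKM of 8 genes in the 5 NL (blue) and 5 LD (orange) retinas, each axis from 0, with the group mean (line) and SD (bar). Values are those of each gene's own row, without reads of near-identical copies. For Rps27l and Rps12 the LD points are tightly grouped far above NL, for Rpl39 and Rpl36a they are spread above NL, for Rpl22l1 they lie just above NL, for Rpl22 and Rps27 the groups overlap, and for Rps23 the LD points lie below NL.

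The start of each gene is shown to see which of them carry a pyrimidine run at the annotated start, the feature that defines TOP mRNAs. Of the 90 genes, 63 were matched by symbol to a RefSeq promoter entry (GRCm38.p6), and each was trimmed to 10 bases before and 20 bases from the annotated start. On the strand of the gene, a run was at least 6 C or T in a row, counted from a C within 5 bases of that start. The base before this C was not considered, so the pyrimidine stretch may begin farther upstream, as in Rpl35 below. Such a run was present in 25 of the 63 (39.7%), in 23 of 54 core genes (42.6%) and in 10.2% of all 32851 promoters. Of the matched genes that rose in LD, 13 of 27 (48.1%) held a run, against 12 of 33 (36.4%) of the other tested genes, a difference that was not tested. The first 5 windows below were picked to show long runs, in capitals, and the others to show genes with some of the largest increases, of which Rps2 and Rpl12 held a run and the last 4 held none by this rule.
Rpl27a (chr7:109519185-109519214, plus strand): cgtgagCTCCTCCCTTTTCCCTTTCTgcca
Rpl35 (chr2:39005112-39005141, minus strand): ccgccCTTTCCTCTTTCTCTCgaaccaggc
Rpl13a (chr7:45128726-45128755, minus strand): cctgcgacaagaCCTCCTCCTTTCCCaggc
Rpl18 (chr7:45718061-45718090, plus strand): ctcgcaggccgCTCTTTCCCCgcccactcc
Rps6 (chr4:86857348-86857377, minus strand): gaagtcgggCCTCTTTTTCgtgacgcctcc
Rps2 (chr17:24720053-24720082, plus strand): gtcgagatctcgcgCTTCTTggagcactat
Rpl12 (chr2:32961702-32961731, plus strand): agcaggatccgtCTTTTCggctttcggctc
Rps27l (chr9:66946076-66946105, plus strand): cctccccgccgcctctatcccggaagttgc
Rps12 (chr10:23787190-23787219, minus strand): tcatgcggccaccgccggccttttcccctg
Rpl39 (chrX:37085203-37085232, minus strand): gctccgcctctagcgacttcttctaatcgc
Rpl36a (chrX:134585644-134585673, plus strand): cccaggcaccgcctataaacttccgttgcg
Of the first 5, Rpl35, Rpl27a and Rpl18 rose, with log2 fold changes of 0.43, 0.29 and 0.46, while Rpl13a (0.15, adjusted p = 0.279) and Rps6, with runs of 14 and 10 letters, did not pass the test. The annotated start may differ from the cap site used in retina. A window without capitals says only that no such run could be counted from a C within 5 bases of the annotated start. The windows of Rps27l, Rps12 and Rpl39 hold pyrimidine stretches that begin farther from it than this limit, without 6 letters in a row counted from a C inside it.

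Paralogs and other names gave the largest single increase. Of the 11 tested genes outside the core, 5 (45.5%) rose and 0 fell, beside 14.5% and 13.4% of all genes tested. The median log2 fold change of 0.44 is that of Rpl36al, a row of 0.104 to 0.422 FPKM that did not pass the test. Rps27l, a paralog of Rps27 known as a target of p53, had 14.2, 11.9, 12.9, 15.01 and 12.5 FPKM in NL and 23.97, 25.1, 24.4, 22.4 and 24.2 in LD. The groups did not come near each other, and the log2 fold change was 0.85 ± 0.06 (SE), adjusted p = 6.19e-06. Its coding sequence differed from that of Rps27 at 60 bases (76.2% identity). The following coding bases 7 to 36, counted from the A of the start codon, hold 13 of these differences, in capitals.
Rps27: ctCgcAaAGgatctCCtTcaTccCtcTCCA
Rps27l: ctGgcTaGAgatctGTtAcaCccTtcCTTG
Rps27 itself had 101 ± 18.2 FPKM in NL and 127 ± 18.1 in LD (SD, n = 5; log2 fold change 0.33 ± 0.14 (SE), adjusted p = 0.0991). Rps27rt, a retrotransposed gene with no difference from Rps27 in its coding sequence, ran from 47.5 to 171 FPKM in NL, and with its reads added to Rps27 the log2 fold change was 0.16 ± 0.08 (SE), adjusted p = 0.181. Rpl22l1, a paralog that the Rpl22 protein can hold down, had 12.7, 11.8, 11.5, 12.2 and 11.1 FPKM in NL and 13.6, 16.6, 15.8, 14.5 and 14.7 in LD. The groups did not overlap for Rpl22l1 (log2 fold change 0.34 ± 0.06 (SE), adjusted p = 0.00179), and they did for Rpl22, at 38.99 ± 1.42 and 40.8 ± 1.45 FPKM (SD, n = 5; log2 fold change 0.07 ± 0.04 (SE), adjusted p = 0.267). Rpl7l1, a nucleolar relative of Rpl7, rose from 12.3 ± 0.613 to 14.98 ± 0.613 FPKM (SD, n = 5; log2 fold change 0.28 ± 0.05 (SE), adjusted p = 0.00126), whereas Rpl7 stood at -0.01, adjusted p = 0.966. Whether the paralogs differed from their parents in response was not tested.

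The retrotransposed genes of the set were weakly determined. Rps12-ps3 had 57.4, 52.4, 47.5, 45.8 and 51.9 FPKM in NL and 63.6, 106, 108, 58.1 and 64.3 in LD, with a log2 fold change of 0.60 ± 0.18 (SE), adjusted p = 0.0296. Its row aligned with 396 of the 411 coding bases of Rps12, without a differing base but with 1 gap. The row also lies across Pdzd8 on the other strand, so that its reads cannot be assigned with certainty. Rpl10-ps3 had a log2 fold change of 0.57 ± 0.17 (SE), adjusted p = 0.0270, at 0.797 to 1.92 FPKM and 13 to 36 reads. Leaving out LD-4, LD-6, NL-4, NL-5, NL-7 or NL-8 ended the call for Rps12-ps3, and leaving out LD-1, LD-6, LD-7, NL-4, NL-7 or NL-8 ended it for Rpl10-ps3. Rpl27-ps3, Rpl36a-ps1 and Rpl36al had log2 fold changes of 0.81, 0.78 and 0.44, at adjusted p = 0.0961, 0.484 and 0.263. Rpl9-ps6 stood at -0.09, adjusted p = 0.533, beside 0.00 for Rpl9, and the binding protein Rps19bp1 at 0.12, adjusted p = 0.124, beside 0.26 for Rps19. The 6 genes too low to test were Rpl3l, the muscle form of Rpl3, Rpl10l and Rpl39l, known from testis, and Rpl9-ps1, Rpl13a-ps1 and Rpl36-ps4. Rpl10l, Rpl9-ps1 and Rpl36-ps4 were listed at 0 in all 10 retinas.

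Rows of near-identical pseudogenes held reads as well. A row was called a near-identical copy of a core gene when at least 50% of its 50-base stretches also occur in that gene's transcripts, and 193 rows met this, 176 of them of a pseudogene biotype, for 62 of the 73 core genes. Of these rows 6 are themselves among the 90 genes, and on the others fell 0.160% ± 0.00508 of the NL reads and 0.227% ± 0.0169 of the LD reads (SD, n = 5 each). For 4 genes under 10% of the combined reads were on the row of the gene, and for 11 under 50%. The pairs below were chosen after their values were seen, to show how small the difference is between a gene and a pseudogene that held many reads. The capitals mark the bases that differ, and positions count from the A of the start codon of the gene, whose base comes first.
Rps2: ctccaaggaggttgcCactgccatCcgagg
Rps2-ps13: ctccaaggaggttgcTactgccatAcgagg
Rpl26: agttcaggttgttcgCggacactacaaagg
Gm15772: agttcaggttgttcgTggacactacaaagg
Rpl30: cgtgctgggctacaaGcagactctgaagat
Gm12191: cgtgctgggctacaaAcagactctgaagat
Rpl29: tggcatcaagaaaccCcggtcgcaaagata
Gm13841: tggcatcaagaaaccAcggtcgcaaagata
The substitutions shown are C444T and C453A for Rps2, C177T for Rpl26, G96A for Rpl30 and C72A for Rpl29, and over the whole coding sequence 7 of 879, 2 of 435, 1 of 345 and 3 of 480 bases differed.

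Rps2, at the entry of the mRNA channel, was the clearest case. Its own row (chr17:24718116-24721929) held 0.945, 1.00, 1.61, 1.00 and 0.953 FPKM in NL and 1.93, 1.27, 1.44, 1.92 and 2.16 in LD. Rps2-ps13, a processed pseudogene (chrX:52898588-52899469), held 241, 255, 266, 263 and 241 FPKM in NL and 351, 600.4, 628, 369 and 472 in LD. The gene held 0.775% of the combined reads. The pseudogene row did not overlap between groups, and had a log2 fold change of 0.89 ± 0.16 (SE), adjusted p = 0.00222. Added to Rps2 together with the other copies, the reads gave 129.7 ± 8.27 FPKM in NL and 241 ± 60.9 in LD (SD, n = 5; log2 fold change 0.86 ± 0.15 (SE), adjusted p = 0.00201), the largest increase of any core gene in this form. The call on the Rps2 row alone was lost without LD-1, LD-7, LD-8, NL-1, NL-4, NL-7 or NL-8. Positions are on GRCm38.

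For several genes reads were divided between gene and copy differently from library to library. The Rpl26 row held 52.04, 1.56, 1.88, 2.15 and 1.72 FPKM in NL and 2.93, 3.04, 2.41, 2.71 and 2.83 in LD, while Gm15772 held 200.3, 339, 361, 363 and 372 and 372, 418, 411, 322 and 364. NL-1 was high on the gene and low on the copy, and the log2 fold change of the row, -0.37 ± 0.84 (SE), adjusted p = 0.792, became 0.59 without NL-1. With the copies added the NL retinas had 114, 105, 112, 113 and 115 FPKM, their SD on the log2 scale went from 2.14 to 0.0528, and the log2 fold change was 0.08 ± 0.07 (SE), adjusted p = 0.480. The Rpl30 row held 5.76, 67.5, 39.3, 42.7 and 38.2 FPKM in NL and 35.3, 73.01, 77.03, 30.04 and 40.1 in LD, and Gm12191 ran the opposite way, from 25.8 in NL-4 to 433 in NL-1. Rpl30 alone had the largest log2 fold change of the core large-subunit genes, 0.65 ± 0.59 (SE), adjusted p = 0.465, and with copies it was 0.08 ± 0.10 (SE), adjusted p = 0.599. For Rpl17 the row ranged from 30.1 to 106 FPKM in NL, and the sum with copies from 197 to 203. The NL spread on the log2 scale exceeded 0.5 for 4 core genes on their own rows and for 0 with copies added. The sums do not say which locus made the RNA.

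**Figure D3:**
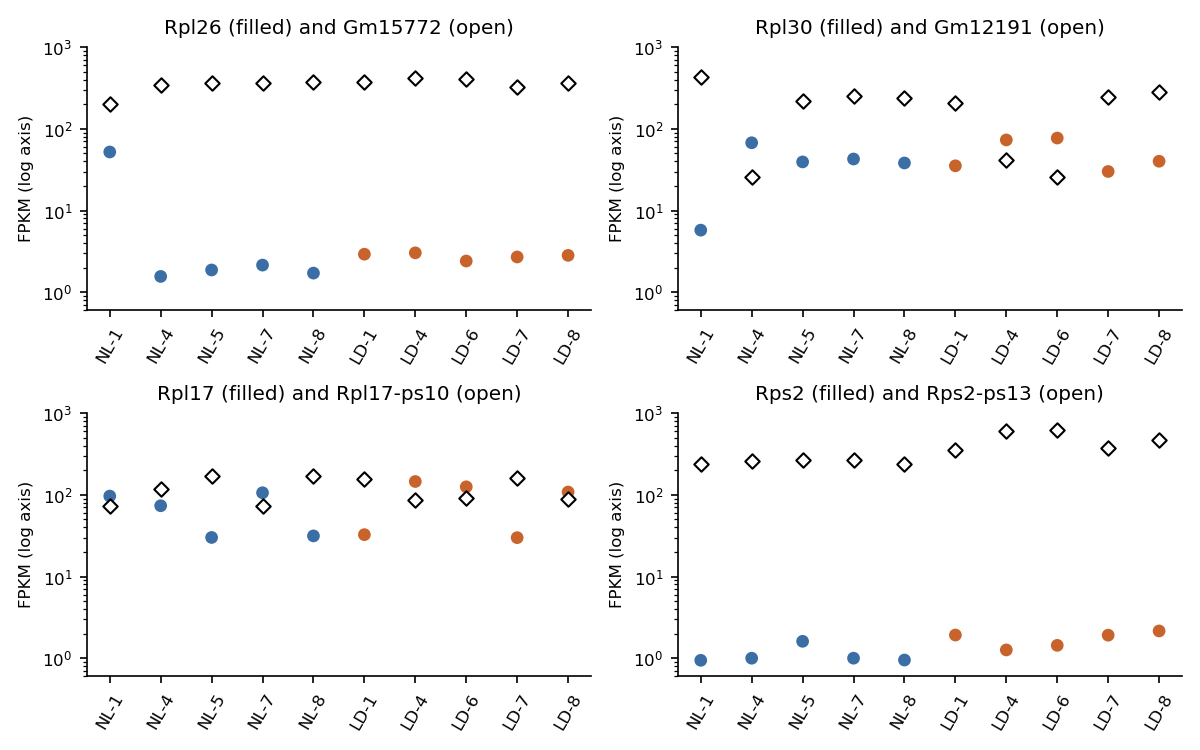
FPKM (log axis) of 4 genes (filled, NL blue, LD orange) and of 1 copy of each (open diamonds) in the 10 retinas. In NL-1 the Rpl26 point is high and its copy low, for Rpl30 and Rpl17 gene and copy move in opposite directions between retinas, and Rps2 stays near 1 to 2 FPKM below a copy at 241 to 628.

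With the reads of copies added to their gene, 38 of 78 ribosomal protein genes were higher (background 14.4% of 24336 genes) and Rps23 alone was lower (background 13.5%), with a median log2 fold change of 0.25. At the study's thresholds 0 were called (background 6.54%). All core genes that rose on their own rows also rose in this form, and 8 more passed the test. Rpl29, a basic protein of the large subunit, went from -0.13 (adjusted p = 0.560) on its row to 0.55 (adjusted p = 0.00168), and Rps10 from -0.02 (0.858) to 0.32 (0.0132). The others were Rpl34, Rpl35a, Rpl31, Rpl27, Rps19 and Rps25, from 0.22 for Rps25 to 0.40 for Rpl31. In this form 23 of 43 large-subunit and 12 of 30 small-subunit core genes were higher, and the difference between the subunits was not tested. Levels also drew together. The mean over all retinas ran from 1.42 to 354.6 FPKM on single rows, a 249-fold range with 9 core genes under 10 FPKM, and from 5.01 to 359.9 FPKM with copies, a 71.8-fold range with 1, Rpl24, under 10. This form was added after the values had been seen.

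**Figure D4:**
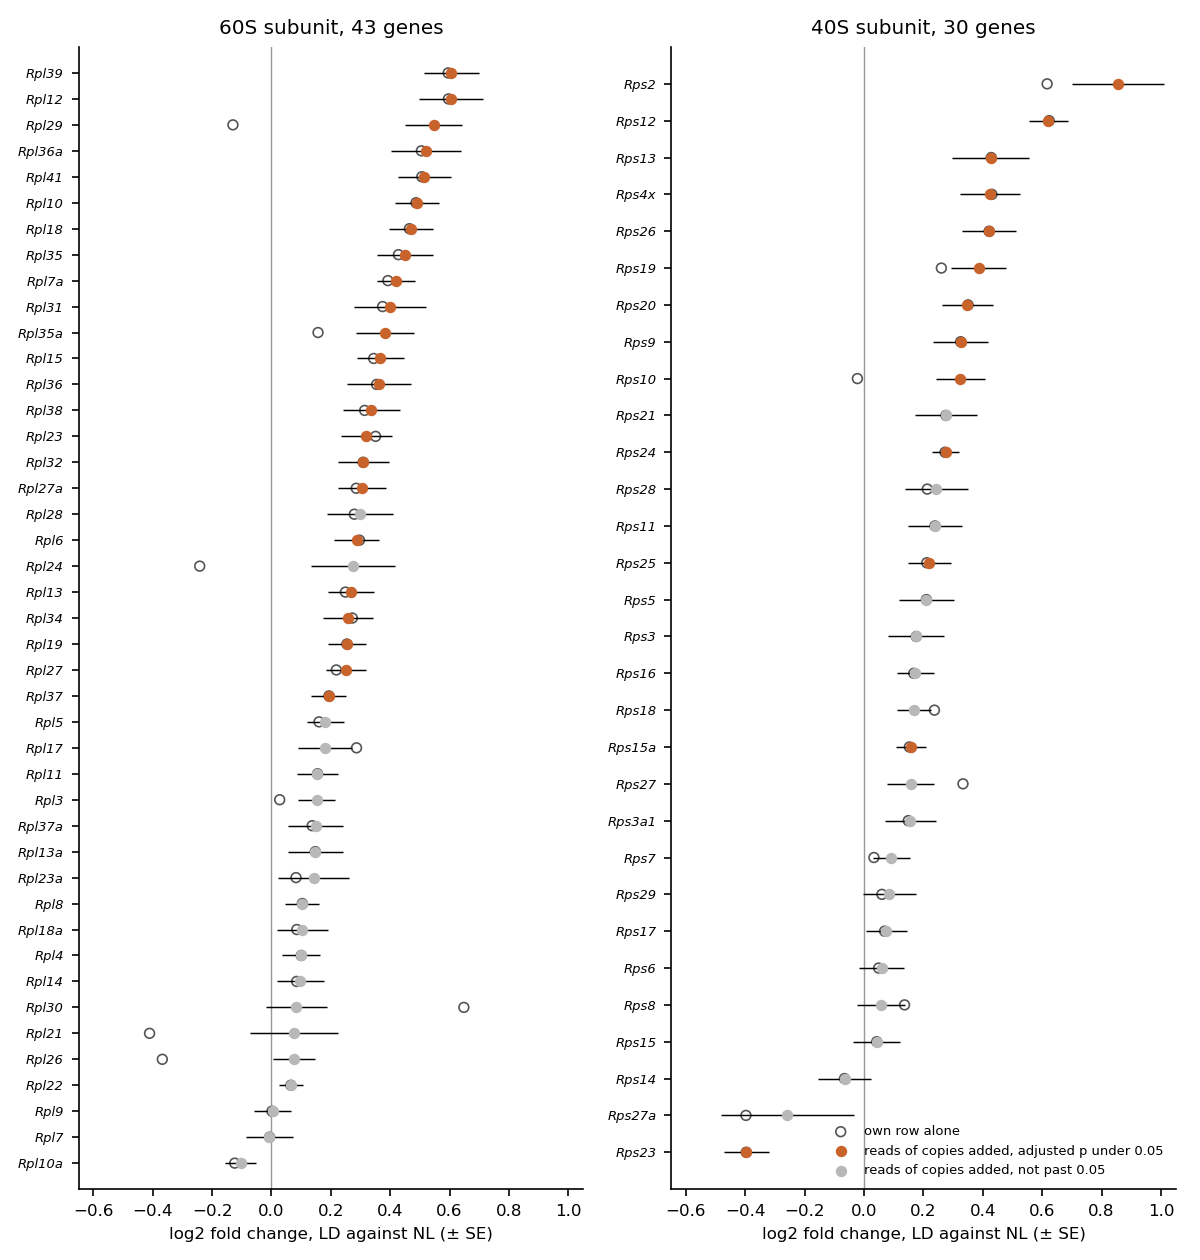
Log2 fold change (LD against NL) of the 43 large-subunit and 30 small-subunit core genes on the row of the gene alone (open circles) and with the reads of copies added (filled, with SE, orange at adjusted p under 0.05). Most open and filled points coincide, but those of Rpl21, Rpl24, Rpl26, Rpl29, Rpl30, Rpl35a, Rps2, Rps10 and Rps27, among others, do not. Rps23 is the only orange point below 0.

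The 4 genes on chromosome X all rose, Rpl10 at 0.49, Rpl36a at 0.50, Rpl39 at 0.60 and Rps4x at 0.43, and for each of them the groups did not overlap. Rpl10, which joins the large subunit late in its assembly, had 60.3, 60.7, 62.9, 60.7 and 62.9 FPKM in NL and 80.6, 95.8, 102, 76.4 and 79.4 in LD. Of 773 tested genes on this chromosome 13.1% were higher, with a median log2 fold change of 0.02. Among the 90 genes 28 contain snoRNA genes, 55 in all, and 29 overlap another gene. The counting is not stated to use the strand, so reads of genes overlapping on opposite strands cannot be told apart, which touches Rpl5, Rpl7l1, Rpl12, Rpl15, Rpl18, Rpl22l1, Rpl30, Rpl31, Rpl32, Rpl35, Rpl35a, Rps2, Rps10, Rps12-ps3, Rps25, Rps27a and Rps27rt among the genes named above. Rpl13, Rpl13a, Rpl19, Rpl24 and Rpl36al overlap a gene on their own strand.

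The subunit genes that carry other names were described beside them. Of 7, 4 (57.1%) were higher and 0 lower, beside 14.5% and 13.4% of all genes tested, with a median log2 fold change of 0.33. Rplp0, the core of the acidic stalk, had 93.9, 85.5, 92.1, 87.4 and 92.4 FPKM in NL and 129, 209, 202, 128 and 157 in LD, and the log2 fold change was 0.84 ± 0.14 (SE), adjusted p = 0.00126. The stalk protein Rplp2 stood at 0.46 ± 0.08 (SE), adjusted p = 0.00119, the scaffold Rack1 at 0.24 ± 0.06 (SE), adjusted p = 0.00899, and Rpsa, a small-subunit protein also known as a laminin receptor, at 0.66 ± 0.16 (SE), adjusted p = 0.00948. Rplp1, at 637 FPKM in NL the most abundant of these, did not pass the test (0.33, adjusted p = 0.141), and neither did Fau.

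Other genes of translation were counted in the same way, against 14.5% higher and 13.4% lower over all genes tested. Of 11 elongation factors and other TOP mRNAs 4 were higher and 0 lower (median 0.15), the lowest adjusted p being those of Btf3 (0.31), Eef1b2 (0.57) and Pabpc1 (0.25). Of 28 initiation factors 12 were higher and 2 lower (median 0.15), led by Eif3b at 0.51 ± 0.05 (SE), adjusted p = 1.80e-05, Eif3c at 0.44 and Eif4a1 at 0.38. Of 68 genes of ribosome biogenesis 22 were higher and 0 lower (median 0.12). Noc4l, which acts in small-subunit assembly, had 5.75, 5.46, 5.52, 4.83 and 5.20 FPKM in NL and 9.67, 10.3, 10.9, 10.9 and 10.5 in LD. Its LD values were close together and far from NL (log2 fold change 0.96 ± 0.06 (SE), adjusted p = 1.45e-06), and Rrp12 and the nucleolar protein Npm1 followed at 0.66 and 0.48. Of 16 genes that control the translation of these mRNAs 4 were higher and 5 lower (median -0.05). Eif4ebp1 restrains cap-dependent translation until mTOR phosphorylates it. The gene had 1.41, 1.44, 2.04, 1.78 and 2.14 FPKM in NL and 5.88, 14.5, 13.7, 6.46 and 8.31 in LD. It was highest in LD-4 and LD-6 and passed the study's thresholds, with a log2 fold change of 2.33 ± 0.26 (SE), adjusted p = 9.02e-05. Sesn1 and Ddit4, inhibitors of mTOR signalling, fell by 0.54 and 0.72 on the log2 scale, and Sesn2, a relative of Sesn1, rose by 0.71. Of 77 mitochondrial ribosomal protein genes, which belong to a separate ribosome, 14 (18.2%) were higher, near the 14.5% of all genes tested, and 3 lower, with a median of 0.03. Mrpl49 stood at -0.68, Mrpl52 at 0.55 and Mrps25 at 1.43. The difference between these lists and the ribosomal protein genes was not tested.

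**Figure D5:**
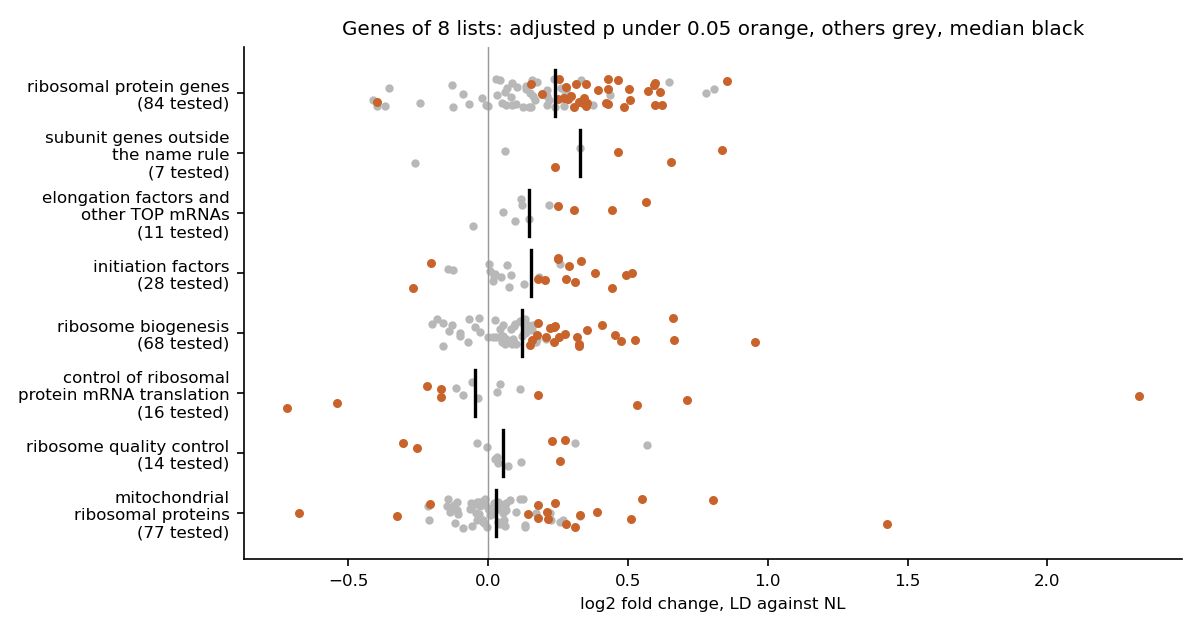
Log2 fold change (LD against NL) of each tested gene in 8 lists, orange at adjusted p under 0.05 and grey otherwise, with the median of each list as a black line. The medians of ribosomal protein genes (0.24) and of subunit genes with other names (0.33) lie right of 0, that of mitochondrial ribosomal proteins (0.03) near 0, and the point at 2.33 is Eif4ebp1.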

How the data were processed

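Gene values were deposited by the authors as FPKM, 1 column per retina, from TruSeq libraries. The submitters' processing notes name Bowtie2 2.0.6, TopHat2 2.0.9 and build mm8, yet positions in the file are those of GRCm38 (86 of the 90 genes lie exactly as in GENCODE M21). The counting program is not given in the sources used here. FPKM times the deposited gene length gave whole multiples of 1 step per retina for 100% of values (tolerance 0.001), and these multiples are called recovered reads. The deposited FPKM scaling included a factor per retina, 0.951 to 0.968 in NL and 1.04 to 1.07 in LD. Depth was 18965090 to 26832535 recovered reads per retina.

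Genes reaching 0.1 FPKM in 5 or more retinas (24508) were tested with limma 3.58.1 in R 4.3.3 on log2(FPKM + 0.1), with an intensity trend and Benjamini-Hochberg adjustment, two-sided. Fold changes are on that scale, which understates changes of low genes. Named genes were those at the study's thresholds, the 8 largest increases and decreases at adjusted p under 0.05 with at least 1 FPKM, the 5 highest levels, paralogs with their parents and the 3 lowest adjusted p of each other list. Rpl26, Rpl30, Rpl17, Rpl29, Rpl34, Rps10 and the chromosome X genes, and others given for their role, were chosen after their values were seen. Members and lists were chosen with earlier results of these data known. The fit was run on simulated data with independent libraries and the same setting of spread for every gene. That setting does not cover the close pairs of libraries found here. Promoters are from RefSeq, transcripts from GENCODE M21.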

Additional observations from a re-analysis of the deposited data

Results flagged for a closer look

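Over 37 named genes and the share of reads on ribosomal protein genes, 76 groups of 5 retinas were checked for 1 value far from the rest, and 3 held one. Chance alone gives such a gap in about 1 of 20 groups. Rpl26 had 52.0 FPKM in NL-1, against 1.57 to 2.15 in the other NL retinas. Rpl9-ps6 had 42.7 FPKM in NL-7, against 32.4 to 35.1 in the others. Rps2 had 1.61 FPKM in NL-5, against 0.946 to 1.00 in the others, on a row that holds 37 to 88 reads per retina.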

How the results depend on the processing

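The direction of the group difference did not depend on any setting tried. The median log2 fold change of the ribosomal protein genes was 0.19 to 0.26 without any 1 retina, 0.34 as TPM and 0.37 without the deposited factor per retina, the last of which moved the median of all genes tested from -0.01 to 0.11. Relative to the median of all genes tested it was 0.25 as reported, 0.26 without that factor, 0.32 with quantile normalization and 0.22 with a pseudocount of 1. On the retinas whose number occurs in both groups, with or without a replicate block, the median was 0.18, and 0.20 relative to all genes tested. The number of genes higher was 22 to 35 without any 1 retina, 53 as TPM, 56 without the factor, 43 with quantile normalization and 20 with the closest pairs averaged. Over all genes tested, 3543 were higher and 3275 lower as reported, 5761 and 2013 without the factor, and 5095 and 2083 as TPM. Quantile normalization gave 3398 and 3625, and leaving out any 1 retina 3067 to 3466 higher and 2710 to 3347 lower. With the closest pairs averaged, 2371 of all genes tested were higher and 1982 lower. With copies added the count of 38 was 29 to 47 without any 1 retina and 60 without the factor. These fits without 1 retina or without the factor were not counted over all genes tested, so no background share stands beside them. Changed genes of all tested, LD against NL, at the study's thresholds numbered 1595 in all as reported, 816 with a pseudocount of 1, and 1379 to 1603 without any 1 retina. The share ratio of 1.26 ran from 1.22 to 1.30. The cause of these changes was not tested.

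The replicate numbers shared by both groups did not pair the retinas, with correlations of deviations from -0.09 to 0.07. On the 8 retinas with a shared number, 16 genes were higher and 1 lower without a replicate block, and 12 and 0 with it. Over all genes tested, 2607 were higher and 2151 lower without the block, and 2116 and 1689 with it. With the block Rps23 stood at -0.39 (limma adjusted p = 0.0583), and Rpl27-ps3 passed the study's thresholds, so that their count was 1. The count of changed genes of all tested, LD against NL, was 808 with the block. With the block and copies added 15 genes were higher, and this fit was not counted over all genes tested.

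Some single genes turned sign. Rpl26 became 0.0753 and Rpl29 0.55 with copies added, and Rpl26 ran from -0.66 to 0.59 without any 1 retina, the highest without NL-1. Rps10 became 0.32 with copies added, 0.0804 as TPM, 0.11 without the factor, 0.0324 on retinas with shared numbers with or without the block, and -0.0610 to 0.00596 without any 1 retina. Rpl7 became 0.10 as TPM, 0.13 without the factor and 0.0427 with quantile normalization, and ran from -0.0609 to 0.0490 without any 1 retina. Rps14 became 0.0381, 0.0675 and 0.15 under the same settings. Rpl9-ps6 became 0.0155 as TPM and 0.0449 without the factor. Rpl17 became -0.16 and Rps15 -0.0032 on retinas with shared numbers. Rpl9 became -0.0118 with pairs averaged, -0.0025 with copies added at 80%, and -0.0170 on retinas with shared numbers, and ran from -0.0354 to 0.0445 without any 1 retina.

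Of 505 values of the named genes under settings other than leaving out a retina, 438 kept direction and side of the threshold, 15 lost the call, 29 gained one and 23 turned sign. Of 370 values with a retina left out, 326 kept both. Counting models planned as 2 alternatives were not run, because the deposited values are FPKM. Limma-voom on the recovered reads gave 34 genes higher and 1 lower, beside 3597 higher and 3317 lower of all genes tested. It was chosen after seeing the data, as were the averaging of pairs and all fits with copies added.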

Other observations

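Of 297 named ribosomal protein pseudogenes 140 were tested, of which 24 were higher and 4 lower (background 14.5% and 13.4%), with a median log2 fold change of 0.25. Rpl36-ps9 had 7.26, 8.84, 6.93, 8.33 and 7.14 FPKM in NL and 0.592, 0.712, 1.13, 1.43 and 2.76 in LD, and fell by 2.64 on the log2 scale (SE 0.33, adjusted p = 1.80e-04), while Rpl36a-ps2 stood at 0.66 ± 0.11 (SE), adjusted p = 0.00132 and Rpsa-ps2 at 0.79 ± 0.13 (SE), adjusted p = 0.00138.

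Of 8 snoRNA host genes without a protein, 3 were higher and 0 lower, with a median log2 fold change of 0.34. They were Snhg12 at 0.58 ± 0.11 (SE), adjusted p = 0.00217, Snhg1 at 0.34 and Zfas1 at 0.22. Of 14 genes of ribosome quality control 3 (21.4%) were higher and 2 lower, with a median of 0.05, beside 14.5% and 13.4% of all genes tested for both lists. G3bp1, a stress granule protein, stood at 0.28 ± 0.04 (SE), adjusted p = 8.74e-04, Nemf, which senses stalled large subunits, at -0.31, and the recycling factor Abce1 at 0.23.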
